A study of Bos taurus with 12 samples.

Results

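The 10 genes described here encode chemokines that draw neutrophils and monocytes (CXCL8, CXCL2, CXCL5, CCL2 and CCL20), the S100 alarmins S100A8, S100A9 and S100A12, the cytokine interleukin 1 beta (IL1B) and its antagonist (IL1RN). They were taken by symbol from the array's probe-to-gene table, in which they have 13 of 24016 probe sets, each assigned to a single gene. A log2 signal above 4 on 3 or more of the 12 arrays was required for a probe set to count as measured, and 10 of the 13 probe sets and 9 of the 10 genes passed. CCL20 did not pass. IL1B passed on exactly 3 arrays and CCL2 on 5, in each case arrays of day 14 alone, so for these genes a higher value at day 14 is partly built into the filter. Where a gene has more than 1 measured probe set, the brightest stands for it.

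The arrays hold RNA of endometrial biopsies from Simmental heifers, taken in the oestrous cycle before the one in which they received a biopsied embryo produced in vivo. NPd7 and NPd14 are biopsies of day 7 and day 14 from heifers that returned to heat and were not pregnant, and CDd7 and CDd14 are biopsies of the same days from heifers that later delivered a calf. Each group has 3 arrays, each of a pool of RNA samples. No heifer was pregnant or carried an embryo when sampled, and the outcome was known only after the transfer. The sources used here give neither the number of heifers in a pool nor whether pools of day 7 and day 14 hold the same animals. P-values therefore measure the spread between these pools. A biopsy is a mix of cells, so that fewer cells of a type and less RNA per cell cannot be told apart.

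CXCL8, CXCL2 and CXCL5 bind receptors on neutrophils and call them into tissue, while CCL2 acts mainly on monocytes and CCL20 on dendritic cells and lymphocytes. S100A8, S100A9 and S100A12 are small calcium-binding proteins, abundant in neutrophils and inducible in epithelium, which act on the receptors TLR4 and AGER when released. IL1B signals through IL1R1 and IL1RAP to NF-kB, which drives chemokine genes, and IL1RN occupies the same receptor without signalling. In the uterus these genes are known from the response to infection, from the clearance that follows insemination and from preparation for implantation. In the RefSeq gene table of the assembly ARS-UCD2.0, S100A8, S100A12 and S100A9 are direct neighbours, and CXCL8, CXCL5 and CXCL2 share a chromosome cluster, with 1 gene between CXCL8 and CXCL5 and 2 between CXCL5 and CXCL2. The gene called CXCL5 here is also known as CXCL6 or GCP2.

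All arrays had similar distributions, with medians of 4.89 to 5.06 and correlations of 0.921 to 0.988 within groups across measured probe sets. Epithelial markers were present on all arrays (12 of 14 listed genes measured, mean log2 signal 10.74 to 11.28), as were stromal fibroblast markers (9 of 15, 6.82 to 10.19) and general leukocyte markers (7 of 8, 7.26 to 9.07). The 3' minus 5' signal of the control transcripts GAPDH, cyclophilin and EF1A, which rises as RNA is degraded or copied short, had a log2 mean of 1.94 ± 0.19 (SD, n = 3) for NPd7 and 2.32 ± 0.17 for NPd14, against 1.65 ± 0.20 for CDd7 and 1.97 ± 0.11 for CDd14. Its part in the results below was not tested beyond a fit that holds it as a covariate, which was added after the data were seen.

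CXCL8 was the chemokine with the widest change between days. At day 7 its log2 signal was 6.59, 6.69 and 3.59 in NPd7 pools 1 to 3 and 4.10, 4.14 and 6.07 in CDd7. At day 14 it was 12.68, 12.46 and 8.83 in NPd14 and 9.39, 13.19 and 11.28 in CDd14. Every pool of day 14 lay above every pool of day 7, in either outcome, whereas the outcomes overlapped on both days. The group means ran from CDd7 (4.77 ± 1.13) over NPd7 (5.62 ± 1.76) to CDd14 (11.29 ± 1.90) and NPd14 (11.32 ± 2.16), and within each day the neighbours did not differ beyond their spread.

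In the heifers that delivered a calf, CXCL8 rose between days by 6.52 on the log2 scale, with a 95% confidence interval of 3.64 to 9.39 (limma, Benjamini-Hochberg adjusted p = 0.00826). The day 7 values lay around the array medians, a dim range in which the size of a fold is less certain. It passed the threshold in each of 12 fits that left out 1 array, with adjusted p from 0.00495 to 0.0366. In heifers that did not become pregnant the difference was 5.70 (2.82 to 8.57, limma adjusted p = 0.104) and did not pass, except when NPd14 pool 3 was left out (6.95, limma adjusted p = 0.0335). Deviations of same-numbered NP pools from their group means correlated across probe sets in all 3 pairs (0.16, 0.62 and 0.51). NPd7 pool 1 correlated at 0.19 with NPd14 pool 3, above its 0.16 with NPd14 pool 1, so number 1 is not shown to be a pair. With the pool number as a block within NP, a fit added after seeing the data, the difference of 5.70 passed (limma adjusted p = 0.0407). The difference between these day effects was 0.82, with an interval of -3.25 to 4.88 (limma adjusted p = 0.851).

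**Figure D1:**
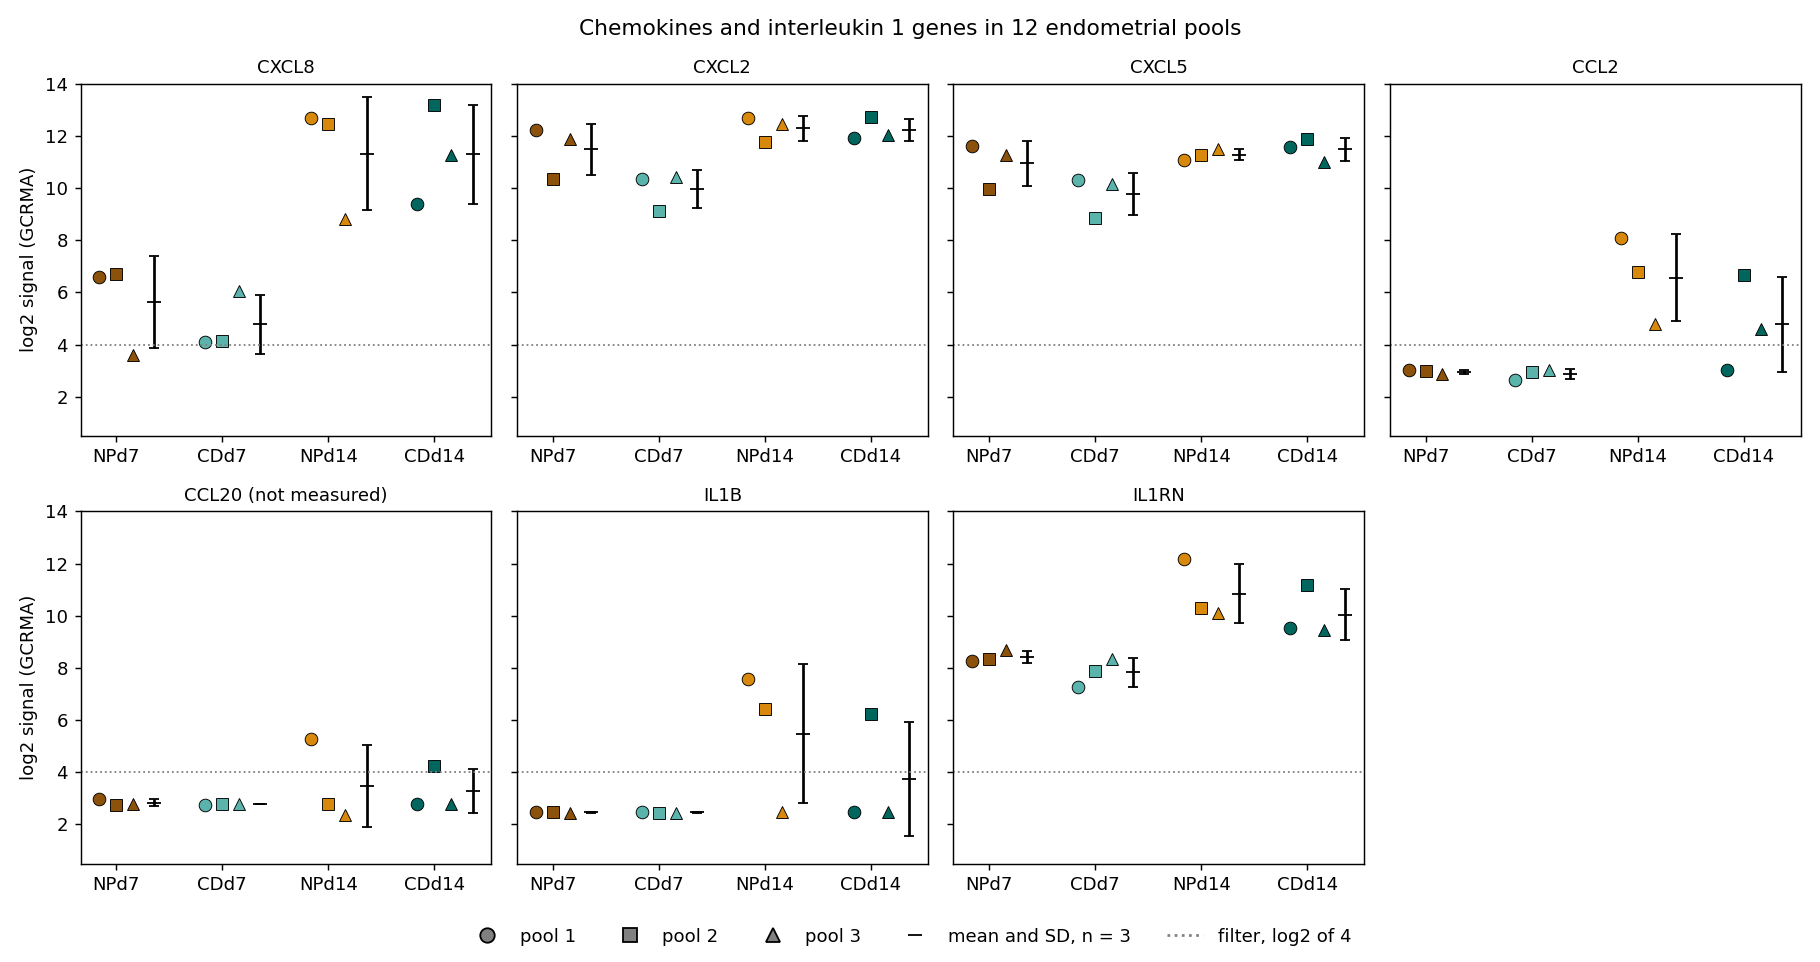
Log2 signal (vertical axis) of 5 chemokine genes, IL1B and IL1RN in the 4 groups, with a point for each pool, a bar for the mean and SD of 3 pools, and a dotted line at the filter of 4. CXCL8 lies between 3.59 and 6.69 at day 7 and between 8.83 and 13.19 at day 14, while IL1B leaves its floor of 2.42 to 2.49 in 3 pools of day 14.

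CXCL2, a chemokine of the GRO family, was bright in all pools and lowest in CDd7. It read 12.23, 10.36 and 11.86 in NPd7, 10.34, 9.11 and 10.41 in CDd7, 12.67, 11.75 and 12.44 in NPd14, and 11.92, 12.73 and 12.05 in CDd14. All CDd7 pools lay below all pools of day 14, and NPd7 overlapped with every other group. CXCL2 rose in CD between days by 2.27 (1.14 to 3.41, limma adjusted p = 0.0131), and by 1.85 without CDd7 pool 2, where it no longer passed (limma adjusted p = 0.0540). In NP the difference was 0.81 (-0.33 to 1.94, limma adjusted p = 0.464).

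CXCL5, a further ligand of the neutrophil receptors, was likewise lowest in pool 2 of each day 7 group. It read 11.60, 9.96 and 11.25 in NPd7, 10.30, 8.85 and 10.15 in CDd7, 11.08, 11.26 and 11.48 in NPd14, and 11.58, 11.86 and 11 in CDd14. The pools of day 14 lay within 0.86 of each other and above all of CDd7, but not above NPd7. CXCL5 rose in CD by 1.71 (0.67 to 2.75, limma adjusted p = 0.0265). Without CDd7 pool 2, CDd14 pool 1 or CDd14 pool 2 it did not pass (1.26, 1.66 and 1.52, limma adjusted p = 0.0968, 0.0663 and 0.0814), nor with no filter on low values (limma adjusted p = 0.0616). The NP difference was 0.34 (-0.70 to 1.38, limma adjusted p = 0.768).

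The day effects of CXCL2 and CXCL5 were larger in CD than in NP by 1.47 (-0.14 to 3.08) and 1.37 (-0.10 to 2.84), which did not pass (limma adjusted p = 0.372 and 0.367). At day 7 CXCL2 differed between CD and NP by -1.53 (-2.66 to -0.39) and CXCL5 by -1.17 (-2.21 to -0.13), with limma adjusted p of 0.0908 and 0.131. Without NPd7 pool 2, the lowest NPd7 pool for both genes, these were -2.09 and -1.66 and passed (limma adjusted p = 0.0242 and 0.0369). GRO1, a near relative of CXCL2 that was looked at after its values were seen, had 2 measured probe sets that differed at day 7 by -0.98 and -1.41 (limma adjusted p = 0.0756 and 0.124). In CD between days, the dimmer of them rose by 1.90 (limma adjusted p = 0.0315) and the brighter had 0.63 (limma adjusted p = 0.148). Genes of this family are alike in sequence and can share signal on an array.

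CCL2 and IL1B were at their floor in all pools of day 7 and left it in some pools of day 14. CCL2 read 2.66 to 3.03 over the 6 pools of day 7, then 8.10, 6.78 and 4.80 in NPd14 and 3.04, 6.67 and 4.61 in CDd14. Its CDd14 pool 1 stayed at the day 7 level. The difference between days was 3.60 in NP (1.59 to 5.60, limma adjusted p = 0.123) and 1.90 in CD (-0.11 to 3.90, limma adjusted p = 0.146). Without NPd14 pool 3 the difference in NP was 4.48 and passed (limma adjusted p = 0.0435). The other CCL2 probe set was not measured and reached 6.82, 3.92 and 4.46 in NPd14 pools 1 and 2 and CDd14 pool 2, against 2.89 to 3.02 elsewhere.

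IL1B read 7.56 and 6.42 in NPd14 pools 1 and 2 and 6.25 in CDd14 pool 2, and between 2.42 and 2.49 in the other 9 pools. Thus 3 pools of day 14 carried a signal and the other 3 did not, in either outcome. The differences between days were 3.03 in NP (0.25 to 5.81, limma adjusted p = 0.275) and 1.29 in CD (-1.50 to 4.07, limma adjusted p = 0.470), the latter 0.03 without CDd14 pool 2. The other IL1B probe set was not measured and was highest in NPd14 pool 1 (3.82) and CDd14 pool 2 (2.93). CCL20 reached 5.29 in NPd14 pool 1 and 4.25 in CDd14 pool 2 and read 2.37 to 2.99 in the remaining 10 pools.

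IL1RN, the antagonist, was high in every pool and higher at day 14. It read 8.25, 8.35 and 8.70 in NPd7, 7.26, 7.89 and 8.35 in CDd7, 12.16, 10.28 and 10.11 in NPd14, and 9.53, 11.16 and 9.44 in CDd14. All 6 pools of day 14 exceeded all 6 of day 7, and the outcomes overlapped on both days. IL1RN rose in CD by 2.21 (0.90 to 3.52, limma adjusted p = 0.0244). The NP difference was 2.42 (1.11 to 3.73, limma adjusted p = 0.119), and the difference of the day effects was -0.21 (-2.06 to 1.64, limma adjusted p = 0.918). The CD rise did not pass without CDd7 pool 1, CDd7 pool 2 or CDd14 pool 2 (1.92, 2.24 and 1.65, limma adjusted p = 0.0756, 0.0740 and 0.0738), nor with no filter (limma adjusted p = 0.0581).

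NPd14 pools 1 and 2 and CDd14 pool 2 gave the 3 highest values of the 12 arrays for CXCL8, CCL2, IL1B and IL1RN, thus for 4 of the 9 measured genes. The same pools were the top 3 in 37 of 6781 measured genes (0.546%). This was noticed in the values and is given as a description. The place of CCL2 in the count, measured on day 14 arrays alone, is partly built into the filter. That of IL1B is fixed by the filter, which it passed through these 3 pools alone. CXCR1, the CXCL8 receptor of neutrophils, had the same pattern, with 9.36, 7.19 and 5.30 in these pools and 2.01 to 2.05 in the other 9, so that it passed the filter through these pools alone. CCL3, a chemokine of macrophages and neutrophils, read 10.66, 7.45 and 10.04 in them, 6.48, 3.50 and 7.11 in NPd14 pool 3 and CDd14 pools 1 and 3, and 3.15 to 4.52 at day 7. The chemokine CCL4 read 9.97, 6.99 and 8.39 in the same 3 pools and 6.81 to 7.67 in the other 9. CXCL10, also a chemokine, read 6.98, 3.69 and 4.55, against 2.54 to 4.17. For both, NPd14 pool 2 thus lay within the range of the other 9 pools. The 5 measured neutrophil markers other than CXCR1 had a mean of 8.54, 7.72 and 7.89 in NPd14 pools 1 and 2 and CDd14 pool 2. In the other 9 pools their mean was 7.46 to 8.20, so that only NPd14 pool 1 lay above the rest. General leukocyte markers were highest in NPd14 pool 1 and CDd14 pool 2 (9.07 and 8.54), but NPd14 pool 2 read 8.01, lower than 8 other pools. The part of neutrophil content in these values was not tested.

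**Figure D2:**
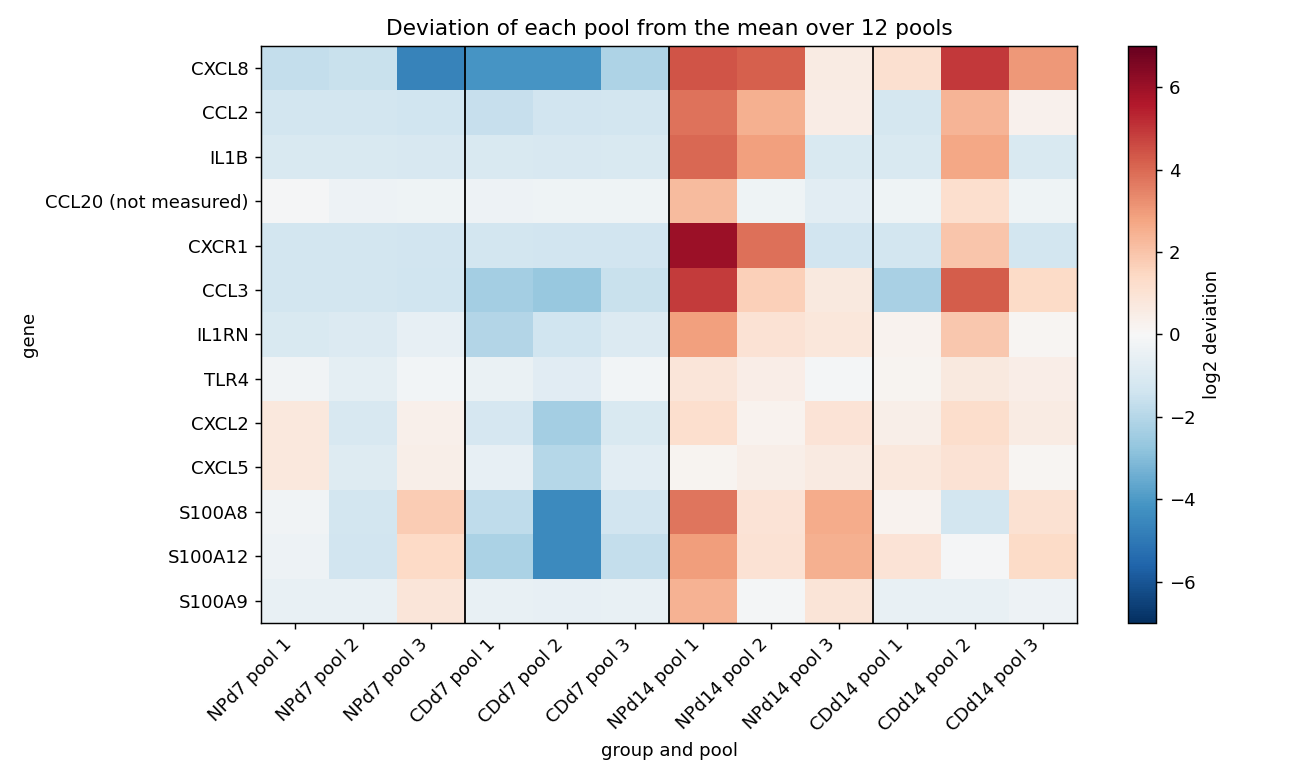
Log2 deviation (colour) of each pool from the mean of its gene over 12 pools, with genes as rows and pools as columns in 4 groups. CXCL8, CCL2, IL1B, CXCR1 and IL1RN are highest in NPd14 pools 1 and 2 and CDd14 pool 2, whereas S100A8 and S100A12 are highest in NPd14 pools 1 and 3.

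The S100 alarmins followed another order of pools. S100A8 read 6.97, 5.89 and 9.0 in NPd7, 5.44, 2.72 and 5.85 in CDd7, 10.93, 8.15 and 9.82 in NPd14, and 7.43, 5.94 and 8.24 in CDd14. CDd7 lay below NPd7, by a gap of 0.04 between the nearest pools, and NPd14 and CDd14 overlapped only through NPd14 pool 2 and CDd14 pool 3. CDd14 pool 2, the pool with the most CXCL8, had the least S100A8 of day 14. The group means ran from CDd7 (4.67 ± 1.70) over CDd14 (7.21 ± 1.17) and NPd7 (7.29 ± 1.58) to NPd14 (9.64 ± 1.40), and CDd14 and NPd7 did not differ beyond their spread.

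S100A12, also called EN-RAGE as a ligand of AGER, had the same order of pools within each group. It read 8.72, 7.76 and 10.47 in NPd7, 6.88, 4.65 and 7.44 in CDd7, 12, 10.08 and 11.59 in NPd14, and 10.03, 9.01 and 10.45 in CDd14. CDd7 again lay below all NPd7 pools and all pools of day 14. S100A12 rose in CD between days by 3.51 (1.58 to 5.43, limma adjusted p = 0.0185). Without CDd7 pool 2, its lowest pool, the difference was 2.67 and did not pass (limma adjusted p = 0.0697), and without CDd14 pool 3 it was 3.20 (limma adjusted p = 0.0653).

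S100A8 had a difference between days of 2.54 in CD (0.15 to 4.93, limma adjusted p = 0.109) and 2.35 in NP (-0.04 to 4.74, limma adjusted p = 0.313), and S100A12 of 2.24 in NP (0.32 to 4.17, limma adjusted p = 0.249). At day 7 S100A8 differed between CD and NP by -2.62 (-5.01 to -0.23, limma adjusted p = 0.139) and S100A12 by -2.66 (-4.59 to -0.74, limma adjusted p = 0.0854). Without NPd7 pool 2 the latter was -3.28 and passed (limma adjusted p = 0.0477). At day 14 the differences were -2.43 (-4.82 to -0.04, limma adjusted p = 0.674) and -1.40 (-3.32 to 0.53, limma adjusted p = 0.784).

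S100A9, the partner of S100A8 in calprotectin, stayed near the filter in most pools. It read 4.17, 4.14 and 5.49 in NPd7, 4.08 to 4.15 in CDd7, 7.11, 4.53 and 5.55 in NPd14, and 4.14 to 4.32 in CDd14. All NPd14 pools lay above all CDd14 pools, a difference of -1.52 (-2.76 to -0.28, limma adjusted p = 0.577). Its other measured probe set read 4.66 in NPd7 pool 3, 5.70, 3.48 and 4.79 in NPd14, 3.81 in CDd14 pool 3 and at most 2.02 in the others, with a CD minus NP difference of -2.04 at day 14 (-3.92 to -0.16, limma adjusted p = 0.632). This probe set passed the filter on exactly 3 arrays, all of NP, so its lower value in CD is partly built into the filter. In CD between days the S100A9 probe sets had differences of 0.09 and 1.18 (limma adjusted p = 0.920 and 0.323).

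The 3' minus 5' difference of the control transcripts had its extremes in the same pools as S100A8 and S100A12, but not the same order in every group. It was lowest in CDd7 pool 2 (1.42), the lowest pool for S100A8 and S100A12, and highest in NPd14 pools 1 and 3 (2.41 and 2.42), their highest pools. Among pools of day 7 it was highest in NPd7 pool 3 (2.11) and among pools of day 14 lowest in CDd14 pool 2 (1.84), as S100A8 was. In NPd7 it was lower in pool 1 (1.73) than in pool 2 (1.97), the reverse of S100A8 and S100A12. In CDd14 it was highest in pool 1 (2.05), whereas both genes were highest in pool 3. With this difference as a covariate, S100A8 differed between days in CD by 0.36 and between outcomes at day 7 by -0.63 (limma adjusted p = 0.850 and 0.788), and S100A12 by 1.75 and -1.06 (limma adjusted p = 0.198 and 0.544). CXCL8 differed between days in CD by 8.01 in this fit (limma adjusted p = 0.0478). The 3' minus 5' difference did not overlap between days in CD (1.42 to 1.79 and 1.84 to 2.05). Nor did it in NP (1.73 to 2.11 and 2.12 to 2.42). The fit therefore cannot fully tell RNA quality apart from the day, for any of these genes.

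**Figure D3:**
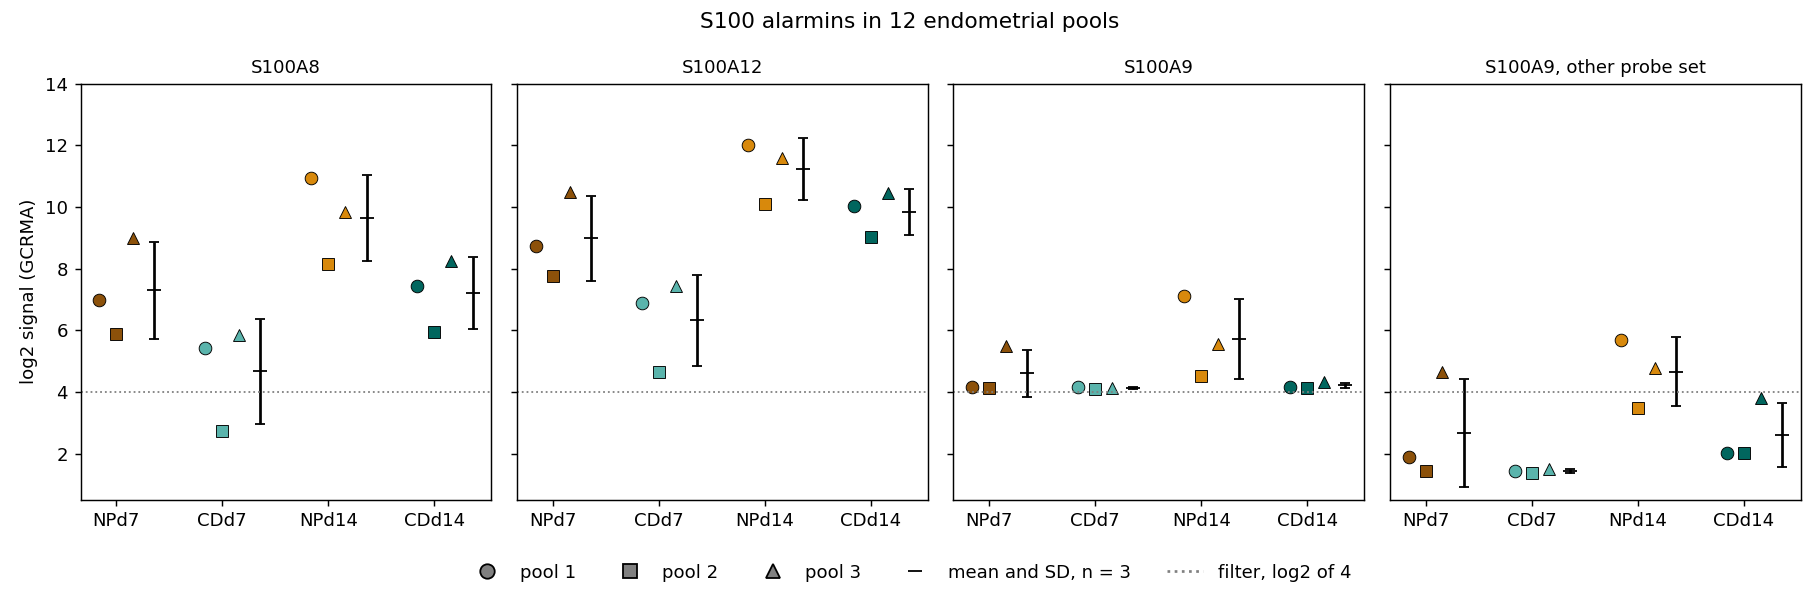
Log2 signal (vertical axis) of S100A8, S100A12 and both measured probe sets of S100A9 in the 4 groups, with a point for each pool, a bar for the mean and SD of 3 pools, and a dotted line at the filter of 4. S100A8 and S100A12 are lowest in CDd7 (means 4.67 and 6.32) and highest in NPd14 (means 9.64 and 11.23), and the brighter probe set of S100A9 stays at 4.08 to 4.32 in all CD pools, where the other reads 1.38 to 3.81.

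Between days in CD, 5 of the 9 measured genes rose (CXCL8, CXCL2, CXCL5, S100A12 and IL1RN), where 9.87% of the 6781 measured genes rose. The median log2 difference of the 9 was 2.21 and that of all measured genes 0.00, with the reserve on CCL2 and IL1B given above. Groups did not overlap in 8 of the 9, S100A9 being the exception, and 22.1% of measured genes lay higher without overlap. For CCL2 and IL1B the nearest pools of the days were only about 0.01 apart, at the floor. The count was 1 without CDd7 pool 2 (CXCL8) and 3 without CDd14 pool 2 (CXCL8, CXCL2 and S100A12). It was 3 with no filter. With the 3' to 5' difference as a covariate it was 1 (CXCL8), in a fit that called 174 probe sets in place of 3231 of 13449. The differences of CXCL2, CXCL5 and IL1RN in that fit were 1.97, 1.51 and 2.23, against 2.27, 1.71 and 2.21 without it, and that of S100A12 was 1.75 against 3.51.

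Between days in NP, 0 of 9 passed by limma, with 5 at an unadjusted p under 0.05, where 0.133% of measured genes passed and 16.5% had such a p. CCL2 and IL1B, whose difference is partly built into the filter, are among the 5, and 3 of the other 7 had such a p. The median difference was 2.35 over the 9 and 2.24 without CCL2 and IL1B, against -0.06 over all measured genes. The days did not overlap for CXCL8, CCL2 and IL1RN, that is for 3 of 9, and 7.33% of measured genes lay higher without overlap. Without NPd14 pool 3, CXCL8 and CCL2 passed. With pool number as a block within NP, CXCL8 passed, and 140 in place of 44 of 13449 probe sets did. For the difference of the day effects 0 of 9 passed, and 0 had an unadjusted p under 0.05, where 0% of measured genes passed limma and 14.5% had such a p.

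Between outcomes at day 7, 0 of 9 passed by limma, with 4 at an unadjusted p under 0.05 (CXCL2, CXCL5, S100A8 and S100A12), where 3.48% of measured genes passed and 30.4% had such a p. The median difference was -0.85, against -0.01 over all measured genes. It was also below 0 for related genes, with -0.63 over 9 other S100 genes and -0.79 over 11 other chemokines. CDd7 and NPd7 did not overlap for S100A8 and S100A12, and 18.6% of measured genes lay lower in CDd7 without overlap. Without NPd7 pool 2, CXCL2, CXCL5 and S100A12 passed. Stromal fibroblast markers moved in the same comparison, with a mean over 9 measured genes of 9.34 to 10.19 in NPd7 and 6.82 to 7.85 in CDd7, and their part in these differences was not tested.

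Between outcomes at day 14, 0 of 9 passed by limma, with 2 at an unadjusted p under 0.05 (S100A8 and S100A9), where 0.0147% of measured genes passed and 6.34% had such a p. The median difference was -1.40 over the 9, against 0.03 over all measured genes. Without CCL2 and IL1B, which passed the filter through day 14 pools alone, the median of the other 7 was -0.81. S100A9 alone of the 9 did not overlap, and 5.72% of measured genes lay lower in CDd14 without overlap. CXCL8 and CXCL2 had differences of -0.04 (-2.91 to 2.84) and -0.06 (-1.20 to 1.08), whose signs turned when single pools were left out.

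**Figure D4:**
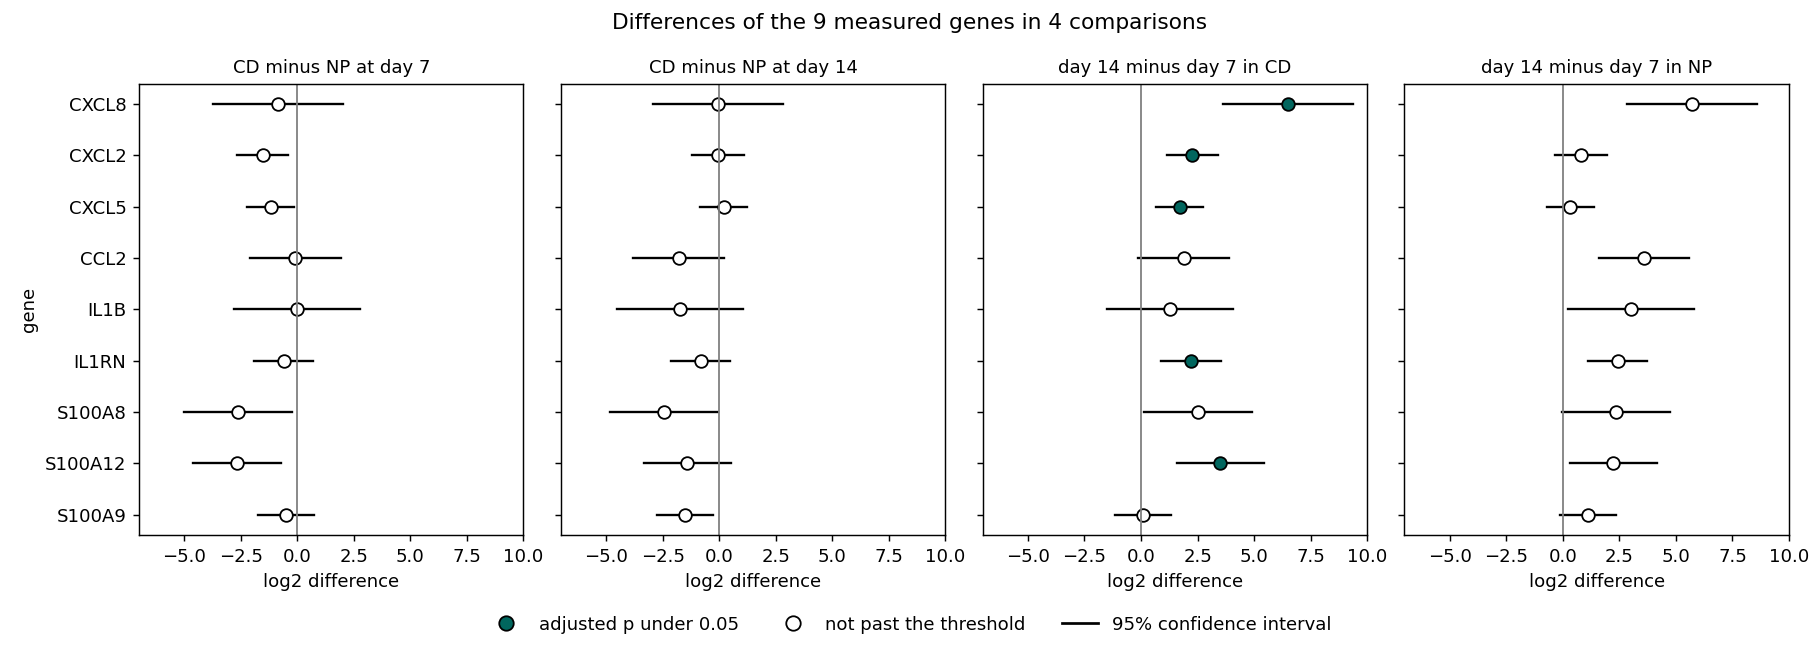
Log2 difference (horizontal axis) of the 9 measured genes in 4 comparisons, with 95% confidence intervals and filled points for an adjusted p under 0.05. The filled points are CXCL8, CXCL2, CXCL5, IL1RN and S100A12 between days in CD, at 6.52, 2.27, 1.71, 2.21 and 3.51.

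Among the receptors, 4 of 9 listed genes were measured: TLR4, CXCR1, IL1R1 and IL1RAP. TLR4, the receptor for bacterial lipopolysaccharide and for S100A8 with S100A9, rose in CD from 7.17 ± 0.29 to 8.09 ± 0.27 (SD, n = 3), by 0.91 (limma adjusted p = 0.0331). In NP it went from 7.28 ± 0.27 to 8.03 ± 0.50 (0.75, limma adjusted p = 0.215). CXCR1 had differences between days of 4.16 in NP and 1.10 in CD (limma adjusted p = 0.229 and 0.621). IL1R1, the signalling receptor of IL1B, lay between 9.04 and 10.29 in all pools, with limma adjusted p of 0.847 to 0.992 in the 4 comparisons of groups. IL1RAP, its partner chain, had -0.57 between days in CD (limma adjusted p = 0.0730). The decoy receptor IL1R2 passed the filter on 1 array (4.76 in NPd14 pool 2), and both probe sets of AGER stayed at 2.44 to 3.17. In the other 4 comparisons 0 of the 4 measured receptors passed by limma, with an unadjusted p under 0.05 for TLR4 and CXCR1 between days in NP and for IL1RAP in the difference of the day effects. Of all measured genes 0% to 3.48% passed in these comparisons, and 6.34% to 30.4% had such a p. The day difference of CXCR1 is partly built into the filter.

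Of 24 measured genes of interleukin 1, Toll-like receptor and NF-kB signalling (37 listed), 7 rose and 2 fell between days in CD, with a median of 0.25, where 9.87% of all measured genes rose and 14.2% fell. NFKBIZ, a nuclear inhibitor-like protein that directs NF-kB to inflammatory genes, rose from 8.51 ± 0.51 to 10.58 ± 0.67, by 2.06 (limma adjusted p = 0.00492). IKBKB, the kinase that releases NF-kB, rose by 1.14, NFKBIE, an NF-kB inhibitor, by 1.16, and IRAK4, the kinase next to the interleukin 1 receptor, by 0.67 (limma adjusted p = 0.00264, 0.0101 and 0.00967). The 2 that fell, named after their values were seen, were CHUK, the partner kinase of IKBKB, by 0.38 and NFKBIA, the main NF-kB inhibitor, by 1.44 (limma adjusted p = 0.0498 and 0.0216). In NP 0 of the 24 passed by limma between days (median 0.00). Of the 24, 5 had an unadjusted p under 0.05 there, where 16.5% of all measured genes had such a p. At day 7, 3 were lower in CD, as 2.02% of all measured genes were: IKBKB (-0.69), IRAK4 (-0.64) and the cytokine IL18 (-1.32), with limma adjusted p of 0.0450, 0.0405 and 0.0475. The dimmer measured probe set of IRAK4 overlapped between the outcomes there (7.43 to 8.18 in NPd7, 7.62 to 7.74 in CDd7). Of the 24, 9 had a difference above 0 there.

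Of 11 other measured chemokines (27 listed), 1 rose and 1 fell between days in CD, shares no higher than those of all measured genes (9.87% and 14.2%). CCL28, an epithelial chemokine for antibody-producing cells, was lower in CD than in NP at day 7 by 1.38 (from 9.87 ± 0.34 in NPd7 to 8.48 ± 0.63 in CDd7, limma adjusted p = 0.0452) and rose in CD by 1.14 (limma adjusted p = 0.0283). CCL25, which draws lymphocytes to mucosa, fell by 0.66 (limma adjusted p = 0.0410). CCL3 had a difference of 3.28 in CD and 3.72 in NP (limma adjusted p = 0.121 and 0.252), and XCL1, a lymphocyte chemokine, 1.12 and -0.40 (limma adjusted p = 0.126 and 0.744).

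Among the other S100 genes the called changes were falls. Of 9 measured (16 listed), 0 rose and 4 fell between days in CD, with a median of -0.52, where 14.2% of all measured genes fell. S100A10, the partner of annexin A2, fell by 1.15, S100B, known from nerve tissue, by 3.15, the calcium-binding calbindin S100G by 1.47 and S100A4 by 0.63 (limma adjusted p = 0.00264, 0.00763, 0.00856 and 0.0427). S100G fell from 13.19 ± 0.20 in CDd7 to 11.72 ± 0.62 in CDd14. In NP 0 of the 9 passed by limma, with a median of -0.58. Of the 9, 6 had an unadjusted p under 0.05 there, where 16.5% of all measured genes had such a p. At day 7, 2 of the 9 were lower in CD and past the threshold, as 2.02% of all measured genes were. Of the 9, 7 had an unadjusted p under 0.05 there in either direction, where 30.4% of all measured genes had such a p. Their median difference was -0.63.

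Neutrophil markers differed in whether they were detected. Of 22 listed genes, 12 have a probe set and 6 were measured, with 0 past limma's threshold and at most 1 at an unadjusted p under 0.05 in each of the 5 comparisons. Of all measured genes, 24.1% passed between days in CD, 3.48% between outcomes at day 7 and at most 0.133% in the rest. Over the 5 comparisons 6.34% to 39.3% of all measured genes had such an unadjusted p. MPO and ELANE, enzymes of the neutrophil granules, read at most 2.60 and 1.83 on all arrays, and ITGAM, CAMP, FCGR3A and MMP9 at most 2.61. CSF3R and CXCR2 have no probe set in the annotation used here. CXCR1, by contrast, was bright in the 3 pools of day 14 named above, and NCF1, CYBB, CYBA, PGLYRP1 and LTF were measured. The mean of the 6 measured markers ran from 6.81 to 7.16 over NPd7 and from 7.04 to 8.67 over NPd14, and from 6.57 to 6.61 over CDd7 and 6.56 to 7.45 over CDd14. Its higher values at day 14 are partly built in, since CXCR1 passed the filter through day 14 pools alone. Without CXCR1 the mean ran from 7.77 to 8.20 over NPd7 and from 7.72 to 8.54 over NPd14. Over CDd7 it was then 7.48 to 7.52 and over CDd14 7.46 to 7.89. NCF1, a subunit of the phagocyte oxidase, read 7.88 in NPd14 pool 1 and 4.98 to 6.50 elsewhere. LTF, a granule protein that uterine epithelium also makes, read 15.01 to 15.42 on its brighter probe set, near the top of the scale. Its other measured probe set ran from 4.76 to 8.52, with a mean of 5.82 ± 0.92 (SD, n = 3) for CDd7, 6.94 ± 1.34 for CDd14, 7.27 ± 0.63 for NPd7 and 8.08 ± 0.39 for NPd14. Its group means were thus lowest in CDd7 and highest in NPd14, as those of S100A8 and S100A12 were. This probe set passed in none of the 5 comparisons (limma adjusted p = 0.167 to 0.892). In CDd14 it was highest in pool 2 (8.48), whereas S100A8 and S100A12 were lowest there.

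Of 18 monocyte and macrophage markers 7 were measured, with 0 past limma's threshold and at most 1 at an unadjusted p under 0.05 in each comparison. The shares of all measured genes are those given for the neutrophil markers. Their mean ran from 5.84 to 6.43 over NPd7 and from 6.17 to 6.57 over NPd14, and from 5.40 to 6.27 over CDd7 and 5.61 to 6.43 over CDd14. Among 7 general leukocyte markers, CD53, a membrane protein of all leukocytes, rose in CD by 1.39 (limma adjusted p = 0.0115). All 7 were lower in CDd7 than in NPd7, with 0 past limma's threshold and 1 at an unadjusted p under 0.05 (median -0.61). In this comparison 2.02% of all measured genes were lower and past the threshold, and 30.4% had such a p in either direction. Stromal markers were lower in the same comparison on all 9 measured genes, of which 5 fell (median -2.95). Of 12 epithelial markers, 0 passed there by limma (median -0.07, 4 at an unadjusted p under 0.05), and KRT7 and CDH1 rose between days in CD. CLDN5, the 1 measured of 8 endothelial markers, was higher in CDd7 than in NPd7 by 2.37 and fell in CD by 4.48, and of 2 measured red cell markers GYPC was lower in CDd7. The part of cell composition in the chemokine and S100 results was not tested.

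By Pearson's r over the 12 arrays, the genes most like CXCL8 outside the 10 were IL13RA1 (0.95), IFI30 (0.91), FOS, SLC39A2 and TNFRSF1A (0.90 each) and TLR4 (0.89). Those most like S100A8 were ZBED5 and NAPB (0.94 each), RPRD1A (0.93), and TTI1, RBMX2 and MTSS1 (0.92 each). The 2 sets share no gene. These values describe the arrays and rest mainly on the step between days for CXCL8. IL13RA1, a receptor chain for interleukin 13, rose in CD by 0.83 and TNFRSF1A, a receptor of tumour necrosis factor, by 0.68 (limma adjusted p = 0.0183 and 0.00947). SLC39A2, a zinc transporter, read 12.97, 13.26 and 5.49 in NPd14 and was thus low in the NPd14 pool in which CXCL8 was lowest. In CDd14 it read 13.20, 12.21 and 12.49 and was highest in pool 1, the CDd14 pool in which CXCL8 was lowest.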

How the data were processed

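The authors deposited log2 values, 24128 probe sets by 12 arrays, made with GCRMA per the submitters' processing notes (version not given). This background model compresses dim signals at a floor, which makes folds from dim levels uncertain. The values run from 0.40 to 16.01. Here 112 AFFX control probe sets were left out, and 13449 of 24016 probe sets passed the filter (log2 above 4 on at least 3 arrays); 8239 have 1 gene symbol, 59 several and 5151 none in the platform annotation. Of the 10 genes, 9 matched RefSeq by gene identifier and CXCL2 by its transcript accession, since its identifier has changed. No sequences were used. Array number limits the precision.

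A linear model with 4 group means was fitted with limma 3.58.1 in R 4.3.3 (8 residual and 2.13 prior degrees of freedom), with 5 contrasts and Benjamini-Hochberg adjustment over 13449 probe sets at a threshold of 0.05, two-sided. The script was tested on simulated data. Intervals are limma's 95% confidence intervals, unadjusted. Pool numbers come from the titles; 1 CDd14 title carries 2 unequal numbers, and the replicate number was used. Deviations of pools from their group means correlated over 0.1 in 10 of 18 pairs with the same number and 9 of 36 with other numbers. NPd7 and NPd14 was the 1 pair of groups with all 3 same-number correlations above 0.1, so a fit with the pool number as a block within NP was added. This does not show that the NP pools are paired.

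S100PBP, listed among the S100 genes, binds an S100 protein and was left out of their counts. The genes and the 11 further lists were chosen with earlier results of these data known. Named are the 10 genes, all measured receptors, from each other list up to 4 genes with the smallest p between days in CD, 6 genes most like CXCL8 and 6 most like S100A8, and the neutrophil markers MPO, ELANE, CSF3R and CXCR2; for length some are left out. GRO1, CCL4, CXCL10, the other LTF probe set and the other dim neutrophil markers were added after their values were seen. Alternatives were no filter, a stricter filter (above 6), quantile normalization, a replicate block by pool number, and eBayes both robust and with a trend. Others were only the arrays of the contrast, other ways to represent a gene, leaving out each array, and a 3' to 5' covariate added later.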

Additional observations from a re-analysis of the deposited data

How the results depend on the processing

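Between days in CD the count of 5 genes was 3 with no filter, 1 with the 3' to 5' difference as a covariate (added after seeing the data; CXCL2 1.97, CXCL5 1.51 and IL1RN 2.23, with calls over all 13449 probe sets down from 3231 to 174) and 1 to 5 when each array was left out in turn. Between outcomes at day 7 the count of 0 was 2 with the pool number as a block and 0 to 3 without single arrays. All calls there went from 503 to 1455 with the block and to 1676 without NPd7 pool 2. Between days in NP the count was 0 to 2 without single arrays and 1 with the replicate block within NP. It was 0 in every fit run for the outcomes at day 14 and for the interaction of day and outcome. The remaining settings changed no count by more than 1.5 times. Pool numbers were not shown to pair the samples, within NP or outside it. Over all groups, correlations were -0.26 to 0.62 for the same number and -0.54 to 0.33 for others. With the replicate block over all groups S100A8 (-2.62) and S100A12 (-2.66) passed at day 7 (limma adjusted p = 0.0242 and 0.0150), and S100A8 (2.54) between days in CD (limma adjusted p = 0.00920). S100A8 and S100A12 were lowest in pool 2 of each group.

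Signs turned with the covariate for CXCL2 (0.28) and S100A12 (0.55) between outcomes at day 14, S100A8 between days in NP (-0.25), and S100A9 between outcomes at day 7 (0.26) and between days in CD (-0.71). The cause was not tested. Without single arrays, signs turned only for uncalled values, which lay between -0.21 and 0.82 with all arrays. At day 14 between outcomes, CXCL2 ranged from -0.33 to 0.13 and CXCL8 from -1.28 to 0.91. CCL2 ranged from -0.16 to 0.02 between outcomes at day 7 and CXCL5 from -0.15 to 0.67 between days in NP. The interaction ranged from -0.43 to 1.83 for CXCL8, -0.77 to 0.44 for IL1RN and -0.79 to 0.89 for S100A8. Signal near the array's floor limits CCL2, CCL20, IL1B and S100A9.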
